A study of Mus musculus with 8 samples.

Results

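Activated alveolar macrophages were chosen by their own RNA counts, as alveolar macrophages in which at least 4 of the 6 genes Inhba, Mmp12, Ccl17, Hilpda, Slc7a2 and Mmp19 had a UMI (a unique molecular identifier, which counts 1 captured RNA molecule). An alveolar macrophage had at least 4 of Chil3, Ear2, Fabp1, Krt79, Plet1, Car4 and Ltc4s detected, with a sum of at least 10 UMIs that exceeded C1qa, C1qb and C1qc together, and at most 3 UMIs of Krt7, Krt8 and Krt18. Cells with more than 1 of Mki67, Top2a, Birc5, Pclaf and Cdk1 detected were left out as cycling. Of 24838 cells within the quality limits, 7339 were alveolar macrophages and 1221 were activated, which is 4.92% of the cells and 10.5% of the gene UMIs. The mA1 libraries held 440 and 174 activated cells, and the Con libraries held 435 and 172. Resting alveolar macrophages, with at most 1 of the 6 genes and at most 1 cycling gene, numbered 1028, and 3640 non-cycling cells lay between.

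The cells came from lung adenocarcinomas of KPC mice, a KP model whose tumours lack Trp53. Lentivirus given into the trachea started the tumours and carried CRISPR activation aimed at tumour cells, with dRNA guides against Malat1 in the mA1 group or against Tomato in the Con group. At 16 weeks the largest tumours were dissected, 4 in each group. Both groups carried the activation system and the same tumour alleles, the macrophages were not the cells aimed at, and the labels used here give no strain, age or sex, nor the allele that the C in KPC stands for. Each group had 2 libraries with 2 hashtag antibodies, so a tumour was taken as the cells of 1 library with 1 hashtag, written here as library number and hashtag number (mA1 1-2). Nothing states that the hashtags of a library came from separate animals, so p-values measure only the spread between these samples, which may be technical. Tumours held 58 to 335 activated cells with 1238680 to 6173194 UMIs. Xist was expressed in the tumours of Con library 2 but hardly in the others, so that library is set apart within its group. Barcodes that occur in another library were found in 912 cells, 9 of them activated. Malat1 itself made up 2.47% and 3.77% of the UMIs of keratin- or Epcam-marked cells in the mA1 libraries and 3.70% and 2.27% in the Con libraries, so the targeted gene did not separate the groups in these cells.

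Alveolar macrophages live in the air spaces of the lung, where they clear surfactant and debris. They depend on GM-CSF and on the nuclear receptor Pparg. When activated, macrophages can secrete activin A, proteases and chemokines and can raise glucose use. Inhba encodes the subunit of activin A, a ligand of the TGF-beta family. Mmp12, the macrophage elastase, and Mmp19 cut matrix proteins. Ccl17 is a ligand of Ccr4, Hilpda binds and inhibits the lipase Pnpla2 on lipid droplets, and Slc7a2 carries arginine and other cationic amino acids.

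The promoter windows of 4 of the 6 defining genes and of the 3 genes Cxcl2, AA467197 and Ccl9, which had some of the largest level differences from resting cells, are printed here. All of these genes had higher levels in activated than in resting cells, which for the 4 defining genes follows in part from the choice of cells. Each runs from 250 bases before to 50 bases after a transcript start, 5′ to 3′ on the gene's strand, from RefSeq on GRCm38.p6. Capitals mark matches to any of 5 motifs searched on both strands.
Inhba (chr13:16011601-16011900, plus strand): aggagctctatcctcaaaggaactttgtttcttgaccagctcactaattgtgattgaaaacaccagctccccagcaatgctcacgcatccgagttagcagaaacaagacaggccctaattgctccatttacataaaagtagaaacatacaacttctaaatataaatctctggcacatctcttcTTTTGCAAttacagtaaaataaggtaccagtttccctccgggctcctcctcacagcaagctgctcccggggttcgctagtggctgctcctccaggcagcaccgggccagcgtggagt
Mmp12 (chr9:7344147-7344446, plus strand): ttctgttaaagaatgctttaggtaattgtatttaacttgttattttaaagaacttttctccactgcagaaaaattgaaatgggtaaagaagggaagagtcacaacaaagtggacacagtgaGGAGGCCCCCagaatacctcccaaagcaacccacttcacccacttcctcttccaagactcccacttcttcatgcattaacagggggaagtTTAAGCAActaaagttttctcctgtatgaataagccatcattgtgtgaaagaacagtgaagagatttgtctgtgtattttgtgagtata
Ccl17 (chr8:94810203-94810502, plus strand): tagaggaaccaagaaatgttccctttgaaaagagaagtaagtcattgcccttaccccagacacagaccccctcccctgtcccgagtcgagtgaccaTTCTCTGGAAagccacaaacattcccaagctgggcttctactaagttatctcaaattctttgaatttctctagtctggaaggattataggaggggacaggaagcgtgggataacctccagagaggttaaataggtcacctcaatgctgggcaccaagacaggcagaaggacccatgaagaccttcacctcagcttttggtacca
Hilpda (chr6:29272238-29272537, plus strand): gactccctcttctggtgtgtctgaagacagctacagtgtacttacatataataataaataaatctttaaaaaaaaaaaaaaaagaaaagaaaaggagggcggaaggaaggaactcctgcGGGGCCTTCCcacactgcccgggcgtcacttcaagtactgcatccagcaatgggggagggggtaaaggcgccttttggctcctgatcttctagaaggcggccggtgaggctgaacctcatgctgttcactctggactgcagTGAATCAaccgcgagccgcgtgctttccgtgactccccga
Cxcl2 (chr5:90903649-90903948, plus strand): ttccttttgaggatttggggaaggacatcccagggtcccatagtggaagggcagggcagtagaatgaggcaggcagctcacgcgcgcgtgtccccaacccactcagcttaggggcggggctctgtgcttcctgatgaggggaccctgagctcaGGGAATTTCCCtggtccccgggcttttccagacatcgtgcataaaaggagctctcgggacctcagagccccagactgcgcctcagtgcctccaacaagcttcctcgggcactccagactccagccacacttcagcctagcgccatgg
AA467197 (chr2:122637637-122637936, plus strand): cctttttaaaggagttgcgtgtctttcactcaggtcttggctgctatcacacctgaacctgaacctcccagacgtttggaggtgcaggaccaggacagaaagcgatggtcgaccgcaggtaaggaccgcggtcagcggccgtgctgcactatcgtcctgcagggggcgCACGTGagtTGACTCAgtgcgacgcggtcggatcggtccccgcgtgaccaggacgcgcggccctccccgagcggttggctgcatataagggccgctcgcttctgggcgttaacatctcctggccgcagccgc
Ccl9 (chr11:83578587-83578886, minus strand): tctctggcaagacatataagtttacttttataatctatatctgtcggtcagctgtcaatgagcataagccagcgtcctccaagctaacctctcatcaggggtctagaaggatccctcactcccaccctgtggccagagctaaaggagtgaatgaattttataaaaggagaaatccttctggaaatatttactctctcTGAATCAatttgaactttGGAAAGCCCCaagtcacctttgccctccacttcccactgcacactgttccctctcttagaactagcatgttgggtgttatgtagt

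The motifs were the NF-kB consensus, AP-1 (TGANTCA), C/EBP (TTGCNNAA), the STAT6 half-site pair and the hypoxia response core (ACGTG), which can lie within CACGTG and then matches on both strands. Of 26 genes looked for (the 6 defining genes and the 20 with the largest ratios over resting cells), 21 had an entry, and Slc7a2 and Mmp19 were among those without one. Counted on the first entry of each gene, the NF-kB consensus was in 7 of the 21 windows (Cxcl2, Hilpda, Mmp12, Ccl9, Rgcc, Basp1 and Ier3; 33.3%), against 8.18% of the windows of 27025 genes. AP-1 was in 3 (AA467197, Hilpda and Ccl9; 14.3% against 7.93%), the hypoxia core in 4 (19.0% against 19.7%), and C/EBP in 2 (Mmp12 and Inhba; 9.52% against 10.8%). The STAT6 match was in the Ccl17 window alone (4.76% against 6.99%), with the first base at -154 from the start. Mmp12 and Hilpda had a second listed window, not printed here. That of Mmp12 held an AP-1 match at -44, and that of Hilpda held an AP-1 match at -128 and ACGTG at -43. Neither held an NF-kB match and that of Mmp12 held no C/EBP match, so these matches depend on the entry counted. In Cxcl2 the NF-kB match began at -97, and in AA467197 the AP-1 match began at -73. These are letter matches in short windows, described with no test.

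The genes of the definition were not carried equally by the activated cells. Slc7a2 and Mmp12 had a UMI in 99.3% and 99.0% of them, Hilpda in 78.1%, Ccl17 in 75.3%, Mmp19 in 51.8% and Inhba in only 27.7%. For comparison, 5639 T cell-marked cells had a median of 3844 UMIs against 19150 in activated cells. In these T cell-marked cells the shares were 1.54% for Slc7a2, 4.54% for Mmp12, 8.62% for Hilpda, 2.25% for Ccl17, 0.284% for Mmp19 and 0.355% for Inhba. Activated cells held 44.5% of all Inhba UMIs of the series, 42.2% of those of Mmp19, 30.8% of those of Mmp12, 29.1% of those of Ccl17, 28.8% of those of Slc7a2 and 26.0% of those of Hilpda. Cells outside the alveolar definition held 50.9% of the Hilpda UMIs of the series, 40.7% of those of Inhba and 34.4% of those of Ccl17. For Mmp12, Mmp19 and Slc7a2 these shares were 16.7%, 13.7% and 4.13%. Most activated cells had no Inhba UMI, so Mmp12 and Slc7a2 were found in more of them than Inhba was. These 2 genes were also the most frequent in resting cells, which could hold at most 1 of the 6. Of all resting cells, whether or not assigned to a tumour, 51.9% had a UMI of Slc7a2 and 18.0% of Mmp12. The shares were 2.82% for Hilpda, 2.43% for Mmp19, 1.65% for Ccl17 and 0.0973% for Inhba. Exactly 4 of the 6 genes were found in 890 cells, 5 in 280 and all 6 in 51. A further 353 alveolar macrophages with 4 or more of the genes were left out as cycling, and 169 cells outside the alveolar definition also had 4 or more, 74 of them with C1q counts at or above the alveolar ones.

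A gene is more often detected where more UMIs were counted, and the activated cells were the deeper ones. Activated cells had a median of 19150 UMIs, cells between 13680 and resting cells 8270, and mitochondrial UMIs made up a median of 5.51% in activated and 7.51% in resting cells. At the threshold, cells with 4 of the 6 genes had a median of 18320 UMIs and those with 3 had 15070. The ratios between states were therefore also computed on cells thinned to 10000 UMIs, while the test of the state by group term was run on cells of any depth only. Thinning left 1073 activated and 321 resting cells, and 1 tumour kept only 8 resting cells.

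Activated and resting cells of the same tumour were compared as a description, with no test, because detection of the 6 genes chose the cells. Tumours held 47 to 150 resting cells with 310289 to 1629703 UMIs, so low levels in resting cells rest on few counts. Levels are in CPM, UMIs summed over the cells of a tumour and state and scaled to the same total, and log2 ratios are of CPM + 1, given as the mean ± SD over 8 tumours. Of 7631 genes at 10 CPM or more in the higher state, 143 (1.87%) were at least 2-fold higher in activated cells in mean ratio and higher in 8 of 8 tumours, and 33 (0.432%) were lower in the same sense. The median log2 ratio over all 7631 was -0.003. At any fold, 672 genes (8.81%) were higher and 517 (6.77%) lower in 8 of 8 tumours. On thinned cells 132 genes were higher and 11 lower by the 2-fold rule, and 91 genes were higher in both.

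Resting cells were allowed at most 1 of the 6 genes, so the gaps between states given here follow in part from the definition. Of the defining genes, Inhba had no UMI in the resting cells of any tumour. Over the group, its pooled level was at least 236-fold higher in activated cells, taking 3 counts as the floor for resting cells, and by tumour it was 60.7, 129, 20.2 and 86.2 CPM in activated cells of the mA1 tumours and 47.1, 104, 42.8 and 55.1 CPM in those of the Con tumours. Mmp12 ran between 1377 and 2674 CPM in activated cells (median 2087), against 16.7 to 327 CPM in resting cells (median 126). Ccl17 ran between 686 and 1917 CPM in activated cells, against 0 to 40.5 CPM in resting cells. Neither overlapped between the states. Slc7a2 had the smallest log2 ratio of the 6, 1.45 ± 0.39, with 443 to 619 CPM in activated cells and 113 to 265 CPM in resting cells, so the arginine transporter was also present in cells called resting.

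**Figure D1:**
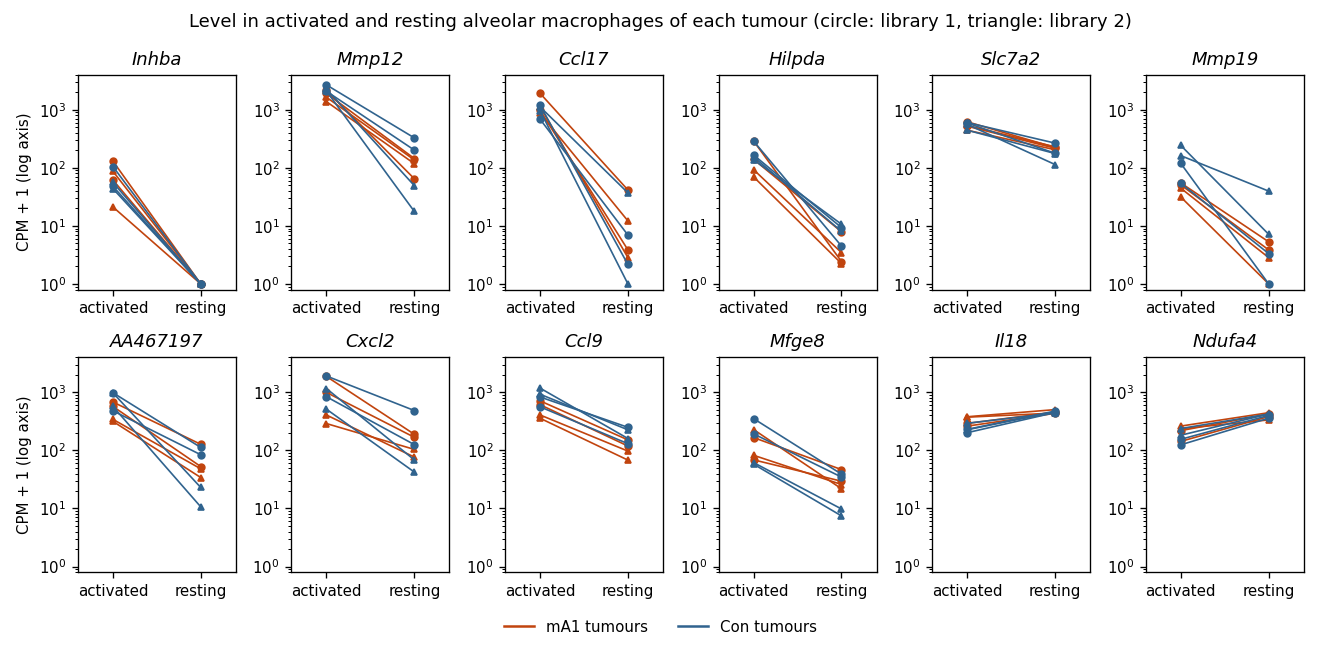
Level of 12 genes in activated and resting alveolar macrophages of each tumour, as CPM + 1 on a log axis; each line joins the 2 states of 1 tumour, orange for mA1 and blue for Con, circles for library 1 and triangles for library 2. The 6 defining genes are in the upper row, where Inhba lies at the bottom of the axis in all resting cells; in the lower row AA467197, Cxcl2, Ccl9 and Mfge8 are higher in activated cells of all 8 tumours, and Il18 and Ndufa4 are lower.

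Outside the definition, the largest mean ratio under the naming rule was that of AA467197 (chromosome 2, GRCm38.p6). This gene is the mouse counterpart of human C15orf48, whose small mitochondrial protein is known to take the place of its relative Ndufa4 in cytochrome c oxidase. AA467197 ran between 315 and 984 CPM in activated cells (median 571), against 9.67 to 126 CPM in resting cells (median 49.5), a log2 ratio of 3.59 ± 1.28. Leaving out 1 library moved this mean ratio between 2.92 and 3.84. Ndufa4 went the other way, with 124 to 261 CPM in activated cells (median 200) and 334 to 445 CPM in resting cells (median 411), a log2 ratio of -1.07 ± 0.36. Neither gene overlapped between the states, and on thinned cells the ratios were 4.07 and -1.15. Over all 8 tumours thinned alveolar macrophages with 0 AA467197 UMIs averaged 4.01 Ndufa4 UMIs, those with 1 to 2 averaged 2.64, those with 3 to 5 averaged 1.94, those with 6 to 10 averaged 1.27 and those with 11 to 121 averaged 0.930. Among thinned activated cells alone, Spearman's rank correlation of the pair was -0.41 over 1073 cells and negative within 8 of 8 tumours, as a description over cells that share libraries.

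Several chemokine genes outside the definition were also higher in activated cells. Of 8 CC chemokine genes at 10 CPM or more, 5 were 2-fold higher and higher in 8 of 8 tumours. These were Ccl3, Ccl4, Ccl9, Ccl22 and Ccl17, and Ccl17 is a defining gene whose ratio follows from the choice of cells. With Ccl17 included, the median log2 ratio of the 8 was 1.49. Ccl9, a ligand of Ccr1, ran between 357 and 1182 CPM in activated cells (median 662), against 67.1 to 249 CPM in resting cells (median 140), with no overlap and a log2 ratio of 2.23 ± 0.34. Of 7 CXC chemokine genes, 3 met the same rule (Cxcl2, Cxcl3 and Cxcl16). Cxcl2, which attracts neutrophils through Cxcr2, ran between 289 and 1910 CPM in activated cells (median 917), against 41.4 to 485 CPM in resting cells (median 114). The ranges overlapped, since the resting cells of Con 1-2 (485 CPM) lay above the activated cells of both tumours of mA1 library 2 (289 and 406 CPM). Within each of the 8 tumours Cxcl2 was higher in activated cells, with a log2 ratio of 2.77 ± 0.86.

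Growth factors and cytokines for other cells included 4 of 11 genes that met the rule, namely Areg, Osm, Spp1 and Igf1. Areg, a ligand of the EGF receptor, had a log2 ratio of 2.96 ± 0.91, with 19.4 to 120 CPM in activated cells and 2.64 to 9.67 CPM in resting cells. Spp1, which encodes osteopontin, had 595 to 2397 CPM in activated cells and 244 to 616 CPM in resting cells, and these ranges overlapped. Fn1, which encodes fibronectin, had a log2 ratio of 1.74 ± 0.93. Il18, a cytokine of the interleukin-1 family, was lower in 8 of 8 tumours without overlap, at 201 to 379 CPM in activated cells and 434 to 503 CPM in resting cells. Mfge8, which bridges dying cells to phagocytes, had a log2 ratio of 2.42 ± 0.77.

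The other named genes higher in activated cells had varied roles. Atf3, a stress-induced transcription factor, had a log2 ratio of 2.12 ± 0.41. The cell cycle inhibitors Cdkn1a (p21) and Cdkn2a (p16 and p19) had 2.10 ± 0.49 and 1.61 ± 0.45. Malt1, a protease that relays signals to NF-kB, had 1.92 ± 0.30, and Atf3, Malt1, Cdkn1a and Cdkn2a were separated between states in the range of every tumour. The immediate early gene Ier3 and the phosphatase gene Dusp1 had 2.35 ± 0.79 and 1.61 ± 0.81. Basp1, Rgcc, Srgn, Wfdc17, Chka, Id2, Cd24a and S100a6 completed the 20 genes named by the rule, with mean log2 ratios between 1.30 and 2.04, higher in 8 of 8 tumours except Srgn in 7. Of 18 dissociation and immediate early genes, 7 met the 2-fold rule and 9 were higher in 8 of 8 tumours (8 on thinned cells); these genes also respond to tissue dissociation, and their part in the other differences was not tested.

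Genes of glucose use and of the hypoxia response mostly had positive ratios, by different amounts, and the difference between these lists was not tested. Of 17 glucose uptake and glycolysis genes, 13 were higher in 8 of 8 tumours (10 on thinned cells) and 5 were at least 2-fold higher (Slc2a1, Slc2a6, Pgk1, Pgam1 and Slc16a3), with a median log2 ratio of 0.60. Pgam1, a glycolytic mutase, had 286 to 553 CPM in activated cells and 132 to 269 CPM in resting cells, without overlap. Slc2a1, the glucose transporter Glut1, had a log2 ratio of 1.51 ± 0.72. Of 13 hypoxia response genes, 12 had a positive mean ratio, 4 were higher and 0 lower in 8 of 8 tumours, and the median was 0.33. Hilpda alone met the 2-fold rule, and it was part of the definition. Of 13 NRF2 and iron handling genes, 10 were higher in 8 of 8 tumours (9 on thinned cells), with Slc7a11, the cystine transporter, at 2.05 ± 0.88.

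Few other genes of the pathways of the defining genes met the 2-fold rule. Of 9 ligands, binders and receptors of activin and TGF-beta, only Inhba met the rule; Tgfb1 had a log2 ratio of 0.09 ± 0.06 and the activin receptor gene Acvr1b had -0.07 ± 0.33. Among 11 transducers and targets, the inhibitors of DNA binding Id2 and Id3 met it, with Id2 at 1.32 ± 0.32. Of 9 matrix proteases, Mmp12 and Mmp19 alone met it. Among arginine genes, Ass1, which makes argininosuccinate, joined Slc7a2 with 19.7 to 76.7 CPM in activated cells and 0 to 6.04 CPM in resting cells. Arg1 overlapped between states, at 0 to 90.3 CPM in activated cells and 0 to 7.86 CPM in resting cells. Of 16 genes of the response to interleukins 4 and 13, Ccl17, Ccl22 and Irf4 met the rule. Chil3 (log2 ratio 0.17 ± 0.52) and Mrc1 (0.10 ± 0.23) did not. Ccl17 is a defining gene, and Chil3 belongs to the genes of the alveolar definition.

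Genes of alveolar macrophage identity differed from resting cells in both directions and mostly by less than 2-fold. Of 29 identity genes, 6 were higher and 5 lower in 8 of 8 tumours, none of them 2-fold higher and 1 (Cidec, a lipid droplet gene) 2-fold lower, and the median log2 ratio was 0.01. The list holds the 7 genes of the alveolar definition, which fix most of its sum. The other 22 genes summed to 10640 to 11930 CPM in activated cells, 9942 to 12210 CPM in resting cells and 1079 to 1905 CPM in the cells outside the alveolar definition. Pparg was lower in 8 of 8 tumours, with 83.4 to 124 CPM in activated cells and 95.4 to 239 CPM in resting cells, ranges that overlapped. Ltc4s, which makes leukotriene C4, was also lower in 8 of 8 tumours (-0.65 ± 0.24), and it belongs to the genes that define the cells. The growth factor receptor subunit gene Csf2rb (0.66 ± 0.27) and the transcription factor gene Bhlhe40 (0.93 ± 0.25) were higher in 8 of 8 tumours without overlap.

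The 10 lowest ratios under the naming rule belonged to Gm26917, Igkc, Gm42418, Lars2, Clec2d, Ndufa4, Krt19, Fpr1, AY036118 and Vmp1. Gm42418 and AY036118 collect ribosomal RNA reads, and Igkc is an antibody chain of plasma cells. On thinned cells the log2 ratio was -0.15 for Gm42418, -0.88 for Gm26917, -0.23 for AY036118 and -0.35 for Lars2, all smaller in size than in cells of any depth (-1.11, -1.59, -0.89 and -1.10), and depth moved with them. The ratio of Ndufa4 was no smaller on thinned cells.

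Levels of several other genes differed with the number of defining genes detected, though not always in the same direction at every step. Cxcl2 and AA467197 lie outside the definition, while Ltc4s and Chil3 belong to its alveolar genes. In thinned cells with 0 to 6 of the 6 genes, counted before thinning as in the definition (24, 327, 1222, 1519, 839, 267 and 50 cells), Cxcl2 averaged 0.792, 1.27, 2.69, 5.02, 11.9, 18.0 and 17.9 UMIs per 10000. AA467197 averaged 0.417, 0.590, 1.79, 3.12, 5.22, 8.54 and 15. Ltc4s ran the other way, at 6.12, 5.91, 5.27, 4.70, 3.98, 3.09 and 2.26, and Chil3 stayed between 122 and 148. Since the number of genes detected depends on depth, the levels were also taken by the number counted after thinning (50, 505, 1454, 1482, 610, 138 and 9 cells), a choice made after seeing the data. Cxcl2 then averaged 0.680, 1.554, 3.14, 6.36, 15.2, 19.6 and 25.6, and AA467197 averaged 1.66, 0.705, 1.99, 3.74, 6.60, 10.7 and 19.1. Ltc4s again was lower with more genes, at 5.62 in the first bin and 2.00 in the last, whereas Chil3 now ran between 116 and 210, the highest value over the 9 cells with all 6 genes. The share of cells with more than 1 cycling gene was 37.8%, 23.9%, 21.9%, 18.6%, 14.99%, 11.9% and 7.14% of thinned alveolar macrophages with 0 to 6 of the genes, cycling cells included and both kinds of gene counted after thinning, the last over 14 cells.

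**Figure D2:**
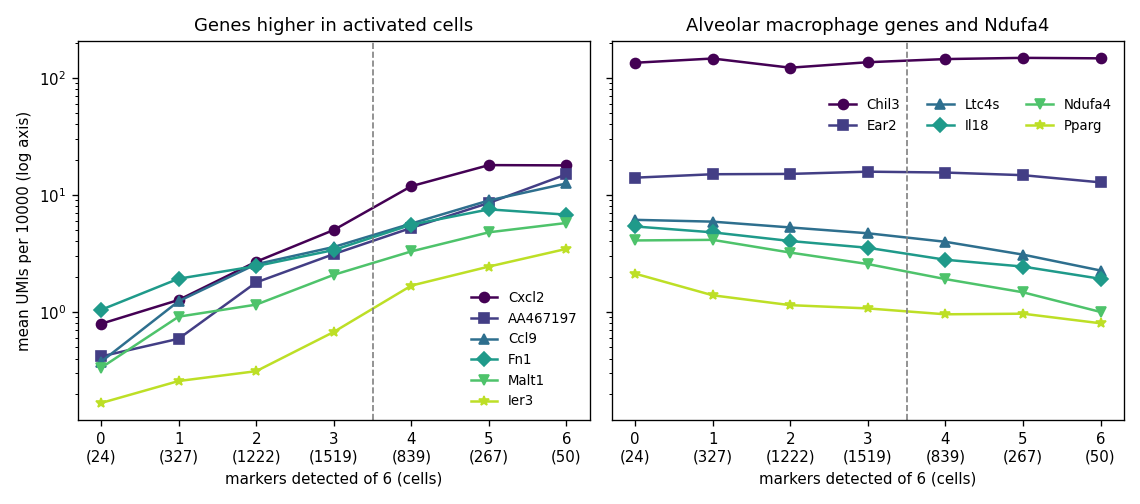
Mean UMIs per 10000 (log axis) in alveolar macrophages thinned to equal depth, by how many of the 6 defining genes were detected before thinning; numbers of cells are in brackets and the dashed line is the threshold of the definition. Cxcl2 and AA467197 are higher in the last bin than in the first, while Chil3 stays between 122 and 148 and Ndufa4 declines; the lowest bin holds only 24 cells.

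Activated cells also differed among themselves in antigen presentation, as seen in genes chosen after their values were known. Across thinned activated cells the MHC class II gene H2-Aa varied together with Cd74 (Spearman's rank correlation 0.90 over 1073 cells), and against the lysosomal protease gene Ctsd (-0.33, negative in 8 of 8 tumours). Within tumours, the 25% of cells with the fewest MHC class II UMIs averaged 55.5 to 87.2 Ctsd UMIs per 10000, and the 25% with the most averaged 32.8 to 51.9. Ccl17, Mmp12, Cxcl2 and H2-M2 were lower in the cells with the fewest in 8 of 8 tumours, with Ccl17 at 1.72 to 13.1 in the cells with the fewest and 9.71 to 40.7 in those with the most. The median MHC class II UMIs of a tumour's activated cells was 84.0, 106, 82.0 and 92.5 in mA1 tumours and 58.0, 95.0, 50.5 and 67.5 in Con tumours, and these ranges overlapped. Inflammatory genes also varied together, with a rank correlation of 0.49 between Cxcl2 and Ier3. Inhba and Mmp12 had a rank correlation of 0.13, positive in 6 of 8 tumours. Detection of these 2 genes helped to choose the cells, so their correlation depends in part on the definition and cannot be set against that of Cxcl2 and Ier3.

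**Figure D3:**
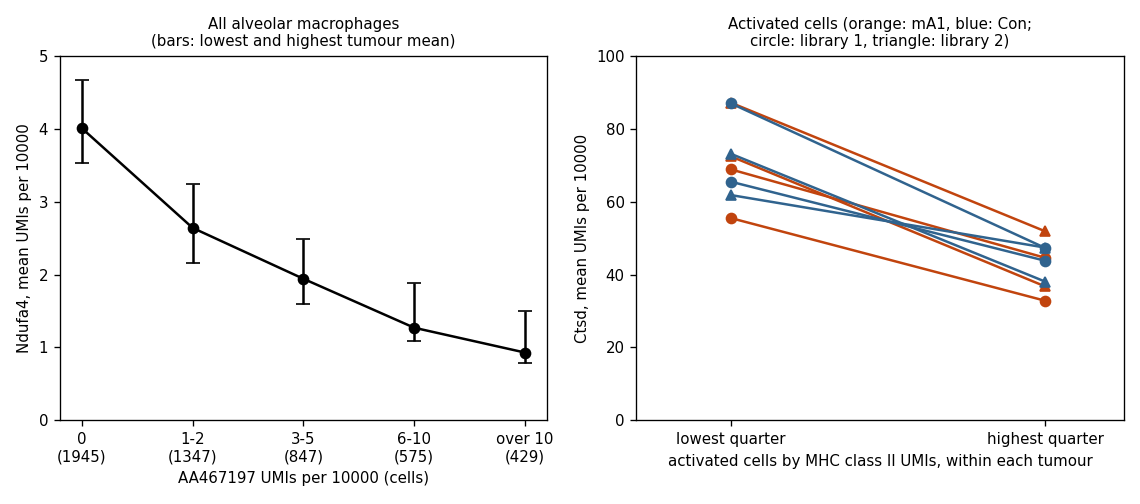
Left, mean Ndufa4 UMIs per 10000 in thinned alveolar macrophages binned by AA467197 UMIs, with bars for the lowest and highest tumour mean and cells in brackets: the mean falls from bin to bin, 4.01 in the first and 0.930 in the last. Right, mean Ctsd UMIs per 10000 in the 25% of activated cells with the fewest and the 25% with the most MHC class II UMIs, 1 line per tumour (orange mA1, blue Con, circles library 1, triangles library 2): all 8 lines slope down.

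The question of the design, whether tumours aimed at with Malat1 guides differ in their microenvironment, was first asked of the number of activated cells. Their share of alveolar macrophages was 12.3%, 19.2%, 11.3% and 12.5% in the 4 mA1 tumours and 10.9%, 23.7%, 11.2% and 28.7% in the 4 Con tumours. The second hashtag of library 1 was the highest mA1 tumour, Con 1-2 and Con 2-2 were the highest of all, and the groups overlapped. The mean was 13.8 ± 3.64% in mA1 and 18.6 ± 8.99% in Con (SD, n = 4 each), a difference of -4.80 percentage points that did not pass the exact two-sided permutation test (p = 0.429, adjusted p = 0.857 over the 4 shares tested; smallest possible p 0.0286). On cells thinned to equal depth the shares were 11.1%, 15.2%, 6.11% and 6.41% in mA1 tumours and 11.5%, 19.9%, 11.5% and 25.1% in Con tumours, a difference of -7.32 points (exact permutation p = 0.114), leaving out 779 mA1 and 843 Con alveolar macrophages that were too shallow. The share of alveolar macrophages among all cells was 33.9%, 36.04%, 44.0% and 38.7% in mA1 tumours and 37.6%, 32.1%, 14.3% and 21.0% in Con tumours (exact permutation p = 0.0857, adjusted p = 0.343). With all cells as the denominator the activated share differed by 0.394 points in the other direction (exact permutation p = 0.8).

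**Figure D4:**
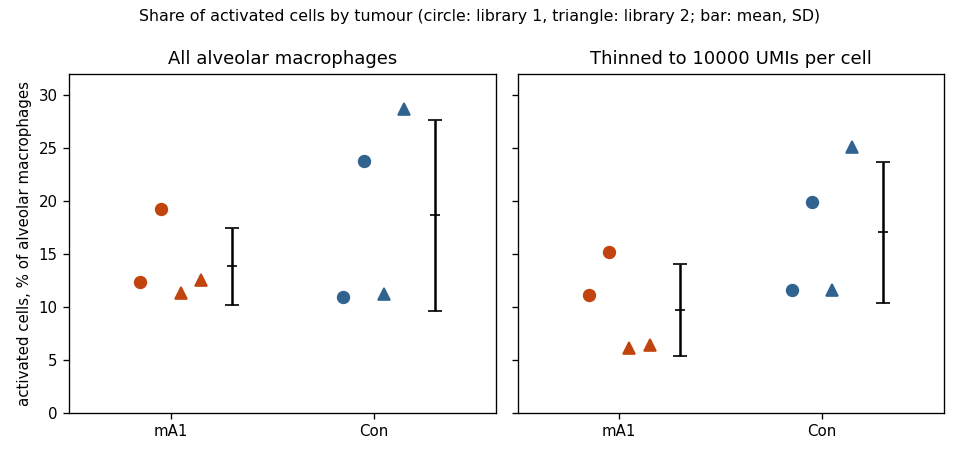
Activated cells as a percentage of alveolar macrophages in each tumour, with the mean and SD of 4 tumours per group; circles are library 1 and triangles library 2, left for all cells and right for cells thinned to 10000 UMIs. Con 1-2 and Con 2-2 stand above the other tumours on both sides, and the groups overlap.

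Among activated cells, no gene passed the test between mA1 and Con tumours. UMIs were summed per tumour and tested over 8710 genes with edgeR's quasi-likelihood test and Benjamini-Hochberg adjustment, and 0 genes (0.0% in either direction) had an adjusted p under 0.05. At an unadjusted p under 0.05 there were 261 higher (3.0%) and 283 lower (3.25%) genes in mA1. DESeq2 called 9 of 14315 genes, all lower in mA1. Among these 9 was Xist, which was expressed in Con library 2 but hardly in the others. The median log2 fold change over all genes was -0.0037, and 49.2% were positive. Leaving out 1 tumour gave 0 to 9 genes, with the 9 without mA1 1-2. Leaving out 1 library gave 72 genes (11 higher and 61 lower) without mA1 library 1, 53 (15 higher and 38 lower, Xist and Y-linked genes among them) without Con library 1, 2 without Con library 2 and 1 without mA1 library 2, each fit with 1 group of 2 tumours.

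Levels of the defining genes in activated cells are given as values without p-values, because the cells were chosen by detection of these genes. Their fold changes and SEs come from the fit over all genes, which included them, and are not read as a test. Where present in a cell, the median was 1 UMI for Mmp19 and 2 UMIs for Inhba and Hilpda, so level and detection are close to the same measure there. Mmp12 had 2146, 1910, 1637 and 1377 CPM in mA1 tumours and 2080, 2674, 2094 and 2253 CPM in Con tumours, a log2 fold change of -0.37 ± 0.14 (SE). Only mA1 1-1 reached the Con range. Mmp19 had 53.8, 49.7, 43.5 and 30.4 CPM in mA1 tumours and 118, 53.3, 241 and 161 CPM in Con tumours (-1.61 ± 0.48), and mA1 1-1 was just above the lowest Con tumour. Mmp19 was highest in the tumours of Con library 2, and leaving out 1 library moved its log2 fold change between -2.11 and -0.87. Hilpda had 139, 287, 91.6 and 68.6 CPM in mA1 tumours and 165, 286, 153 and 137 CPM in Con tumours. The groups overlapped for Hilpda, and also for Inhba (log2 fold change 0.20 ± 0.57), Ccl17 (0.30 ± 0.30) and Slc7a2 (-0.06 ± 0.12). With 5 of 6 genes required, which left 1 mA1 tumour against 3 Con tumours, the signs of Ccl17, Hilpda and Slc7a2 turned. Malat1 had 13230 ± 3020 CPM in activated cells of mA1 tumours and 11490 ± 904 CPM in those of Con tumours (SD, n = 4 each), and it did not pass the test (adjusted p = 0.853, edgeR's quasi-likelihood test, as for all adjusted p here).

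The genes with the smallest p in each direction are given as values that did not pass. Of all genes tested, 357 (4.1%) had mA1 and Con tumours that did not overlap. Cdkn2a had 67.2, 83.4, 114 and 88.0 CPM in mA1 tumours and 174, 142, 143 and 168 CPM in Con tumours, with no overlap (-0.83 ± 0.14; adjusted p = 0.152). Clu, the secreted chaperone clusterin, had 11.3, 17.8, 11.9 and 15.2 CPM in mA1 tumours and 30.5, 29.0, 63.0 and 52.0 CPM in Con tumours (-1.52 ± 0.25; adjusted p = 0.152). Clu was highest in the tumours of Con library 2. The endoplasmic reticulum stress genes Manf (-0.48 ± 0.10; adjusted p = 0.195) and Hspa5 (-0.48 ± 0.11; adjusted p = 0.343) also lay lower without overlap, with Hspa5 at 559, 765, 782 and 814 CPM in mA1 tumours and 967, 952, 1082 and 1062 CPM in Con tumours. Mgat2, an enzyme gene of N-glycan synthesis, had 50.5, 54.3, 62.6 and 51.0 CPM in mA1 tumours and 81.7, 70.3, 79.9 and 76.8 CPM in Con tumours, again without overlap (-0.49 ± 0.11; adjusted p = 0.343). The cyclin gene Ccnd1, Krt18, Sftpb and Igha were also among the 10 with the smallest p on this side. On the higher side, Arhgap31, which inactivates small GTPases of the Cdc42 and Rac kind, had 197, 141, 170 and 180 CPM in mA1 tumours and 120, 121, 115 and 121 CPM in Con tumours (0.51 ± 0.10; adjusted p = 0.195). Syne1, Frmd4a, Nfx1, Nap1l1, Tanc1, Perp, Sh3glb2, Ccdc85b and Hmgcs1 followed, with log2 fold changes between 0.38 and 0.76.

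**Figure D5:**
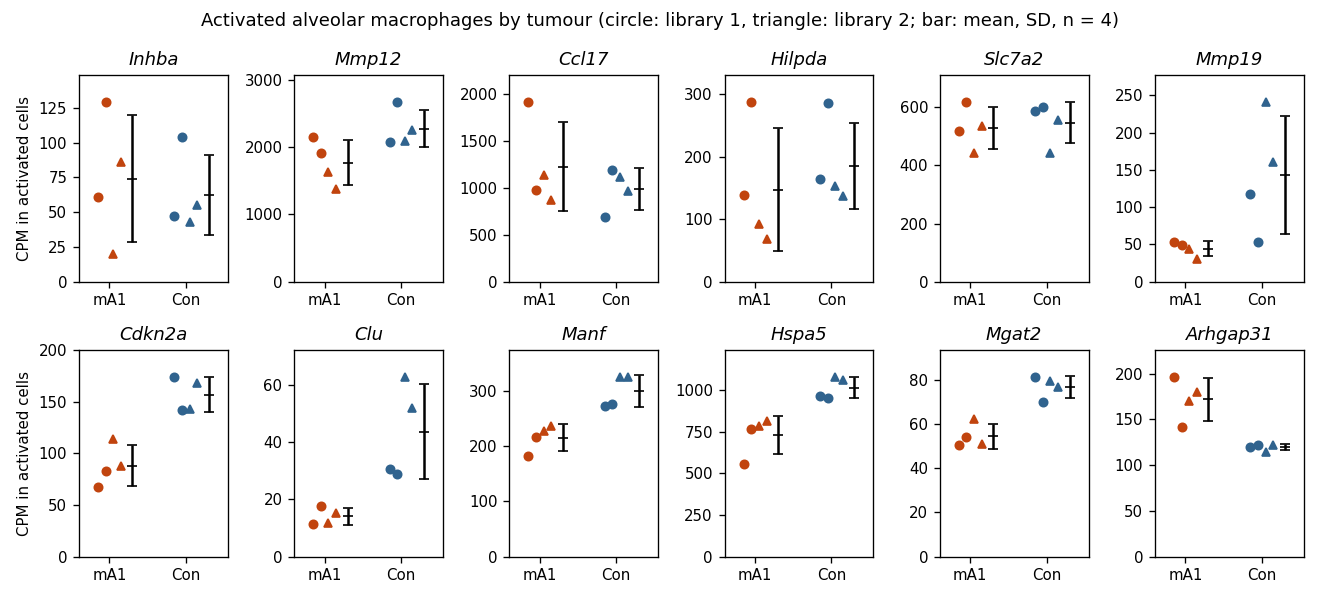
CPM of 12 genes in activated cells of each tumour, mA1 left and Con right, with the mean and SD of 4 tumours; circles are library 1 and triangles library 2, and each axis starts at 0. The 6 defining genes overlap between the groups, whereas Cdkn2a, Clu, Manf, Hspa5 and Mgat2 lie lower and Arhgap31 higher in mA1 tumours with no overlap, although none of these 6 passed the adjusted test.

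Krt18, Sftpb and Igha are genes of epithelial and plasma cells, and markers of other cells were lower in activated cells of mA1 tumours in several lists. The 7 C1q macrophage markers summed to 43.0 to 92.1 CPM in mA1 tumours and 126 to 257 CPM in Con tumours, with Folr2 at 0. The definition limits C1qa, C1qb and C1qc, and the other 4 summed to 17.6 to 70.7 CPM in mA1 tumours and 106 to 133 CPM in Con tumours. The 5 plasma cell markers summed to 52.3 to 179 CPM in mA1 tumours and 202 to 300 CPM in Con tumours. The 8 epithelial markers summed to 161 to 198 CPM in mA1 tumours and 168 to 274 CPM in Con tumours, with the 5 that the definition does not limit at 153.5 to 189 CPM in mA1 tumours and 149.6 to 261 CPM in Con tumours. The 6 neutrophil markers summed to 73.7 to 81.2 CPM in mA1 tumours and 93.1 to 119 CPM in Con tumours. The 6 T cell markers summed to 163 to 217 CPM in mA1 tumours and 140 to 298 CPM in Con tumours. The part of these markers in the differences between groups was not tested.

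Lists of related genes had 0 members past the test in either direction. All 18 dissociation and immediate early genes had negative log2 fold changes in mA1, with a median of -0.37, against -0.0037 over all genes. All 9 matrix proteases tested were also on the negative side (median -0.49). The defining genes Mmp12 (-0.37) and Mmp19 (-1.61) are in this list, here and with libraries left out. Its counts and medians thus rest in part on genes that chose the cells. Adam17 (-0.003) and Mmp8 (-0.072) lay close to no difference. The sheddase genes Adam15 (-0.61 ± 0.16) and Adam10 (-0.33 ± 0.09) did not overlap between the groups (adjusted p = 0.527 and 0.626, edgeR's quasi-likelihood test). Of 20 NF-kB targets and inflammatory cytokines 17 were negative (median -0.33), and of 17 genes of the response to interleukins 4 and 13 there were 14 (median -0.21). These counts rested in part on single libraries. Without mA1 library 1 the NF-kB targets and cytokines had a median of -1.02 (18 of 20 negative), the dissociation and immediate early genes one of -0.68 (18 of 18 negative) and the matrix proteases one of -0.60 (7 of 9 negative). Without mA1 library 2, 13 of 20 NF-kB targets and cytokines were positive (median 0.05), as were 7 of 18 dissociation and immediate early genes (median -0.12) and 8 of 18 genes of the response to interleukins 4 and 13 (median -0.13), and the matrix proteases had a median of -0.23 (9 of 10 negative). Without Con library 1, 5 of 18 dissociation and immediate early genes (median -0.17) and 7 of 20 NF-kB targets and cytokines (median -0.17) were positive. Without Con library 2, 3 of 10 matrix proteases were positive (median -0.28). Genes of MHC class II and co-stimulation (7 of 12 positive, median 0.16), hypoxia response (10 of 16 positive, median 0.07) and alveolar macrophage identity (17 of 29 positive, median 0.05) were near even. The hypoxia list changed direction with the library left out, with 2 of 16 positive without mA1 library 1 (median -0.25) and 13 of 16 positive without Con library 1 (median 0.23). The MHC class II list had 6 of 13 positive without mA1 library 1 (median -0.07) and 10 of 12 without Con library 1 (median 0.21). Members of a list vary together between tumours, so these counts are not independent.

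Over all alveolar macrophages, without regard to activation, 2 of 11525 genes passed the test, both lower in mA1 (0.0174%), and these were the epithelial genes Krt18 (-1.66 ± 0.20; adjusted p = 0.0229) and Sftpb (-1.55 ± 0.17; adjusted p = 0.0199). The definition limits Krt18 together with Krt7 and Krt8 to 3 UMIs a cell, so the rule bounds its level in these cells, and Sftpb is the called gene that the rule did not use. None of the 6 defining genes passed, with adjusted p between 0.491 and 0.946 by edgeR's quasi-likelihood test. Without mA1 1-1, mA1 2-1 or mA1 2-2, no gene passed. Mmp19 had a log2 fold change of -1.52 ± 0.48 over all alveolar macrophages and Mmp12 of -0.40 ± 0.21. For Mmp19 the gap lay mostly in Con library 2, with 92.7 and 98.5 CPM in its tumours. The tumours of Con library 1 had 32.1 and 24.4 CPM, and the mA1 tumours 23.3, 22.9, 18.8 and 16.8 CPM.

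Whether the difference between mA1 and Con was unlike in activated and resting cells was tested with a state by group term over 8728 genes. The term passed for 1 gene (0.0115%) and was negative, which means a smaller ratio of activated to resting cells in mA1, not a lower level in mA1. Rhoc, a small GTPase gene, had 217, 186, 178 and 189 CPM in activated cells of mA1 tumours and 148, 182, 203 and 220 CPM in those of Con tumours. In resting cells Rhoc had 211, 152, 141 and 153 CPM in mA1 tumours and 66.6, 77.9, 125 and 90.2 CPM in Con tumours. The activated cells overlapped between the groups and the resting cells did not, and the term was -0.84 ± 0.15 (adjusted p = 0.0324, edgeR's quasi-likelihood test). Rhoc was thus higher in activated than in resting cells by a log2 ratio of 1.08 in Con tumours, against 0.24 in mA1 tumours. Leaving out 1 tumour moved the term between -1.03 and -0.77 and its adjusted p between 0.00256 and 0.173, and it did not pass without Con 2-2 or without any 1 of the mA1 tumours. With cells of up to 2 defining genes taken as resting the term was -0.46 (adjusted p = 0.123, edgeR's quasi-likelihood test).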

How the data were processed

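The deposited matrices, 1 per library, hold UMI counts made by the authors with Cell Ranger 6.0.1 on mm10, per the submitters' processing notes. Barcodes under 500 gene UMIs, under 250 genes or above 15% mitochondrial UMIs were dropped, which kept 7735 and 3898 cells in the mA1 libraries and 7397 and 5808 in the Con libraries. Hashtags were called per library by a mixture of 2 Gaussians on the counts (scikit-learn 1.9.0), and 86.1% to 90.7% of cells had exactly 1. Cells with both hashtags and cells called by Scrublet (scanpy 1.11.5) were left out of tumour sums, so 1134 activated cells entered them. Scrublet called 0 cells in Con library 2 and is taken not to have worked there.

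Tumour sums went into edgeR 4.0.16 under R 4.3.3 (two-sided robust quasi-likelihood test after filterByExpr and TMM scaling), with a limit of 0.05 on the Benjamini-Hochberg adjusted p and with DESeq2 1.42.0 as an alternative. Tumours needed 20 cells per state. Shares were compared by exact permutation of 8 tumours (70 arrangements). Errors of fold changes are standard errors. Promoter sequences came from RefSeq tables on GRCm38.p6.

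The cells, lists and tests were chosen with earlier results of these data known. Named genes between groups are the 6 defining genes, the 10 with the smallest p in each direction, and members of lists. Named genes between states are the 20 highest and 10 lowest mean ratios among genes at 50 CPM or more in the higher state of every tumour, and members of lists. Xist, Y-linked, mitochondrial and ribosomal protein genes are not named by this rule, and any other gene named was chosen after its values were seen. Some items that the rules would name are not reported here. The edgeR script was tested on simulated data.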

Additional observations from a re-analysis of the deposited data

Results flagged for a closer look

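The share of activated cells among alveolar macrophages had 1 mA1 tumour far from the others, mA1 1-2 at 19.2% against 11.3% to 12.5%, a gap of 0.85 of the group's range. The same tumour held the highest Ier3 level of its group (353 CPM against 54.6 to 82.8 CPM; 0.906 of the range). Con 1-2, also the second hashtag of a first library, stood apart among Con tumours for Ier3 (239 CPM against 109 to 123 CPM; 0.893) and for Cdkn1a (186 CPM against 112 to 121 CPM; 0.871). Frmd4a had mA1 1-2 below its group (111 CPM against 130 to 133 CPM; 0.892) and Con 2-1 below its group (84.0 CPM against 97.6 to 100.2 CPM; 0.843). Tanc1 had mA1 1-1 below its group (11.8 CPM against 18.8 to 20.2 CPM; 0.836). These 7 were found among 128 groups of 4 tumours, and chance flags about 1 group in 20.

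Rhoc had a difference between mA1 and Con in activated cells that departed from that in resting cells by -0.84 on the log2 scale, tested by the state by group term.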

How the results depend on the processing

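Hashtag calls, doublets, mitochondrial limit, shared barcodes (an alternative chosen after seeing the data), TMM or RLE scaling and libraries as replicates left the share difference negative and each count of called genes as reported, wherever each was run. The share difference was 0.394 points with all cells as denominator, and leaving out tumours or libraries moved it between -7.385 and -1.443. For genes between groups in activated cells (0 called), DESeq2 called 9, no filter on low counts 22 (3 higher and 19 lower), at least 3 of 6 defining genes 4, and at least 5 of 6 called 6, there with 1 mA1 tumour against 3 Con tumours. Leaving out a tumour gave 0 to 9 and a library 1 to 72. The library number as a replicate block gave 1 gene (Ccnd1), while the share difference stayed at -4.80 (exact permutation p = 0.5) and all alveolar macrophages kept 2 genes. Same-numbered libraries deviated together with a correlation of 0.14 over 10281 genes, but 2 pairs and the labels do not show pairing. Over all alveolar macrophages (2 called), DESeq2 called 45 (14 higher and 31 lower, with Xist among the 45), no filter 9, and leaving out a tumour 0 to 3. For the state by group term (1 called), no filter gave 31, resting cells with at most 2 of the genes 5, and leaving out a tumour 0 to 22. Genes 2-fold apart between states numbered 176, 142 on thinned cells with the level limit applied there, and 161 to 245 without 1 library. Reversed signs, all for genes that had not passed, were Inhba at -0.0689 with 3 of 6, and with 5 of 6 Ccl17 at -0.25, Hilpda at 0.49, Slc7a2 at 0.22, Perp at -0.0399 and Malat1 at -0.11. Slc7a2 was at 0.0057 in cells chosen after thinning, an alternative added after seeing the data. Leaving out tumours or libraries moved Inhba between -0.3751 and 0.6712, Hilpda between -1.238 and 0.1845, Slc7a2 between -0.2047 and 0.1114 and Malat1 between -0.1034 and 0.4449 in activated cells. Over all alveolar macrophages Inhba moved between -0.9344 and 0.079 and Slc7a2 between -0.2143 and 0.08. The cause of these moves was not tested. Tumours with as few as 58 activated cells limit what small changes of low genes could be seen, and detection of Inhba per cell is limited by depth.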

Other observations

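Apoe, an apolipoprotein gene of lipid-laden macrophages, was held by few activated cells. Of 1771 Apoe UMIs in the activated cells of tumours, 85.0% came from 10 cells, and 79.98% of activated cells had none. Of these 10 cells, 7 had a C1q UMI, and 2 lay in mA1 tumours and 8 in Con tumours. The lowest sum of the 7 alveolar genes among them was 19 UMIs, against a median of 303 in activated cells. They were taken from activated cells, so all 10 met the alveolar definition beforehand. The heat shock genes Hspa1a and Hspa1b varied together across activated cells (Spearman's rank correlation 0.53 over 1073 cells, positive in 8 of 8 tumours), as a description over cells that share libraries. H2-M2, a nonclassical MHC class I gene, had 34.3 to 201 CPM in activated cells and 0 to 27.9 CPM in resting cells, without overlap. These genes were chosen after their values were seen.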
